A study of Mus musculus with 1086 samples.

Results

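Liver messenger RNA was compared between male 129S1/SvImJ mice fed a high fat diet and male 129S1/SvImJ mice fed chow, which asks what the diet does to the liver of 1 inbred strain. The mice were taken as the 16 table columns whose names start with the strain's short name, 129S1, of 128 founder males sequenced and 1086 sequencing records in the series. There were 8 high fat males and 8 chow males, all 26 weeks old, each giving 1 library. The founder protocol describes a high fat, high sucrose diet with 45% of calories from fat and 34% sucrose by weight, against a control diet with 17% of calories from fat, both given from 4 weeks of age. The diets therefore differed in fat, and no sucrose value is given for the control diet. Which component of the diet moved a gene cannot be told apart. No allele was engineered in any group. The other 7 founder strains were AJ (A/J), B6 (C57BL/6J), CAST (CAST/EiJ), NOD (NOD/ShiLtJ), NZO (NZO/HILtJ), PWK (PWK/PhJ) and WSB (WSB/EiJ). They were fed the same way, with 8 males on each diet, were of the same age except NZO, taken at 20 weeks, and were used to set the spread and to ask where 129S1 differed.

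The liver makes cholesterol from acetyl units through a long chain of enzymes, and the transcription factor SREBP-2 switches that chain on when cells are short of sterol and lets it fall when sterol is plentiful. The same organ makes, burns, stores and exports fat. Fat reaches it as fatty acids taken up from blood, is held in lipid droplets as triglyceride, is burned in mitochondria and peroxisomes, and leaves in lipoproteins, while surplus cholesterol leaves as bile acids. A diet rich in fat is known to shift all of these in mice, and strains are known to differ in how much fat their livers gather.

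Values are given as count equivalents, the deposited signal multiplied by a single constant so that 1 unit is close to 1 read in a typical founder library. Sequencing depth, read back from the steps between low values, was 5.86 to 13.4 M reads in the high fat libraries and 6.75 to 10.3 M reads in the chow libraries. Albumin and the other defining hepatocyte markers were abundant in all 16 libraries, and 0 of 12 hepatocyte markers passed the test between diets (against 1.44% of all genes tested). High fat mouse 7639 stood apart in RNA of digestive enzymes of the pancreas, with 197 count equivalents of Ctrb1, whose median was 0 over the high fat mice and whose highest value was 0.833 in chow mice. Chow mouse 8144 stood apart from the other chow mice for 9 of the 93 named genes examined, the most of any mouse. Each lane of the flowcell held 1 high fat mouse and 1 chow mouse, so diet was balanced over lanes. The labels used here do not say how mice were caged, so cage and diet cannot be told apart.

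Of 13534 genes tested, 195 (1.44%) changed with diet in 129S1 by limma at an adjusted p under 0.05, where the adjustment is Benjamini-Hochberg over all genes tested. High fat livers had the lower level for 28 of these genes (0.207% of those tested) and the higher level for the others (1.23%). Of the 28, 2 identifiers carried the same values as each other and have no gene name here. The change was more than 2-fold for 44 of the higher genes and 17 of the lower genes. At an unadjusted p under 0.05, 1599 genes (11.8%) passed. The values of the 8 high fat mice lay wholly above those of the 8 chow mice for 52 genes (0.384%) and wholly below them for 10 (0.0739%). Leaving out 1 mouse gave 85 calls without chow mouse 8144, 92 without high fat mouse 7654 and 55.4% of the 195 without high fat mouse 8378. The direction of every called gene named below was the same without any 1 of the 16 mice. In a fit of the 129S1 mice alone with lane as a block, 22 genes passed, and of the named genes that passed, 14 still did and 47 did not. The 14 were Sqle, Idi1, Nsdhl, Tm7sf2, Rdh11, Fads1, Fitm1, Adgrv1, Treh, Cd36, Omd, Mogat1, Tusc3 and Aqp4.

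The largest falls were in cholesterol synthesis. Of 25 listed genes of cholesterol synthesis and uptake, 24 were in the table and tested, and Hmgcs1 was not analysed here. High fat livers were lower for 8 of the 24, against 0.207% of all genes tested, and higher for none. All 24 had the lower mean in high fat livers, with a median log2 change of -0.89, against 0.0086 over all genes tested.

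The promoters of 4 of the 8 genes are shown first, as the regulatory DNA of genes that fell together. Each is the 250 bases before the RefSeq start in build GRCm38.p6, written 5′ to 3′ on the gene's strand, and capitals mark CCAAT or its reverse complement ATTGG, the box read by the NF-Y factor known to work beside SREBP-2. They lie at chr5:4104698-4104947 on the minus strand (Cyp51), chr13:8885356-8885605 on the plus strand (Idi1), chr19:6067851-6068100 on the minus strand (Tm7sf2) and chr15:82147019-82147268 on the plus strand (Srebf2).
Cyp51: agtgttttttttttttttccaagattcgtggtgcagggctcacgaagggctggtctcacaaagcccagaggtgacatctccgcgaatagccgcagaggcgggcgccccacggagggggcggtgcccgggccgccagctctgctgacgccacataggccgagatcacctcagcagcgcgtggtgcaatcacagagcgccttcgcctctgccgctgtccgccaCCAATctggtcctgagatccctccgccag
Idi1: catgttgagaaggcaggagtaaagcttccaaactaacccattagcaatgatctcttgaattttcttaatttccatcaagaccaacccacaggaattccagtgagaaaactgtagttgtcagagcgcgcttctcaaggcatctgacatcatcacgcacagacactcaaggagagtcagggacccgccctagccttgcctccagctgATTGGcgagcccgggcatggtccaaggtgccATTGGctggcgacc
Tm7sf2: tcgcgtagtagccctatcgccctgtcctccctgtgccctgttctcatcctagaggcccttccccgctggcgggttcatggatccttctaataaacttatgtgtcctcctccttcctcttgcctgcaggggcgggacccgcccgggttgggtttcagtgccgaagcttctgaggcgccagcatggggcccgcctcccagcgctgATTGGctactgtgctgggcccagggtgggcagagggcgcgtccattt
Srebf2: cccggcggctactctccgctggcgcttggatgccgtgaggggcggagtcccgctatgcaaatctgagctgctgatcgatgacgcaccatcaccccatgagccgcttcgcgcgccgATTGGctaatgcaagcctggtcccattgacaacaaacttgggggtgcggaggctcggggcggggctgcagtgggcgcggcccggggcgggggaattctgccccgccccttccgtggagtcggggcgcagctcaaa

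CCAAT, searched on both strands, was present in 15 of the 19 promoters found for 16 of the tested cholesterol genes (78.9%), and in 35.3% of the 12760 promoters of all genes tested. It was in all 5 promoters found for the called genes, where the box began 29 bases before the start of Cyp51, 47 before that of Tm7sf2, 45 and 14 before that of Idi1, and farther from that of Srebf2. TCACNCCAC, 1 form of the sterol element that SREBP factors read, was in none of the 19 promoters and in 1.06% of those of all genes tested. A match describes these letters only, and their absence from this window says nothing about binding.

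Sqle, which encodes squalene epoxidase, an early oxygen-requiring step towards sterol, had 25.9, 34.1 and 348 count equivalents in high fat livers (lowest, median and highest of 8 mice), against 224, 709 and 1297 in chow livers. Its log2 change was -3.52 ± 0.68 (SE, n = 8 each), a fall of 11.5-fold, with an adjusted p of 0.000692 by limma. The groups overlapped only through high fat mouse 8393, at 348, and chow mouse 8563, at 224. The other 7 high fat mice had at most 90.9, and the other 7 chow mice had at least 491.

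Enzymes that act before squalene is formed also fell. Idi1, which interconverts the isoprene units of the pathway, had a median of 113.4 count equivalents in high fat livers and 701 in chow livers (log2 change -2.30, adjusted p = 0.00793 by limma). Fdps, which joins those units into farnesyl diphosphate, had medians of 206 in high fat livers and 988 in chow livers (-1.98, adjusted p = 0.0023).

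The enzymes that trim the sterol ring fell too. Cyp51, which removes the methyl group at carbon 14 of lanosterol, had 90.7, 134.8 and 485 count equivalents in high fat livers and 313, 659 and 1015 in chow livers, a log2 change of -2.10 (SE 0.44, adjusted p = 0.0023 by limma). Nsdhl, a sterol dehydrogenase, had medians of 75.5 in high fat livers and 310 in chow livers (-1.91, adjusted p = 0.0021). Tm7sf2, a sterol reductase, had 146.05, 209 and 338 in high fat livers, against 318, 505 and 691 in chow livers, a log2 change of -1.26 (SE 0.23) and the smallest adjusted p of the list, 0.000347. Its groups overlapped by the same pair of mice, 8393 at 338 on high fat and 8563 at 318 on chow.

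**Figure D1:**
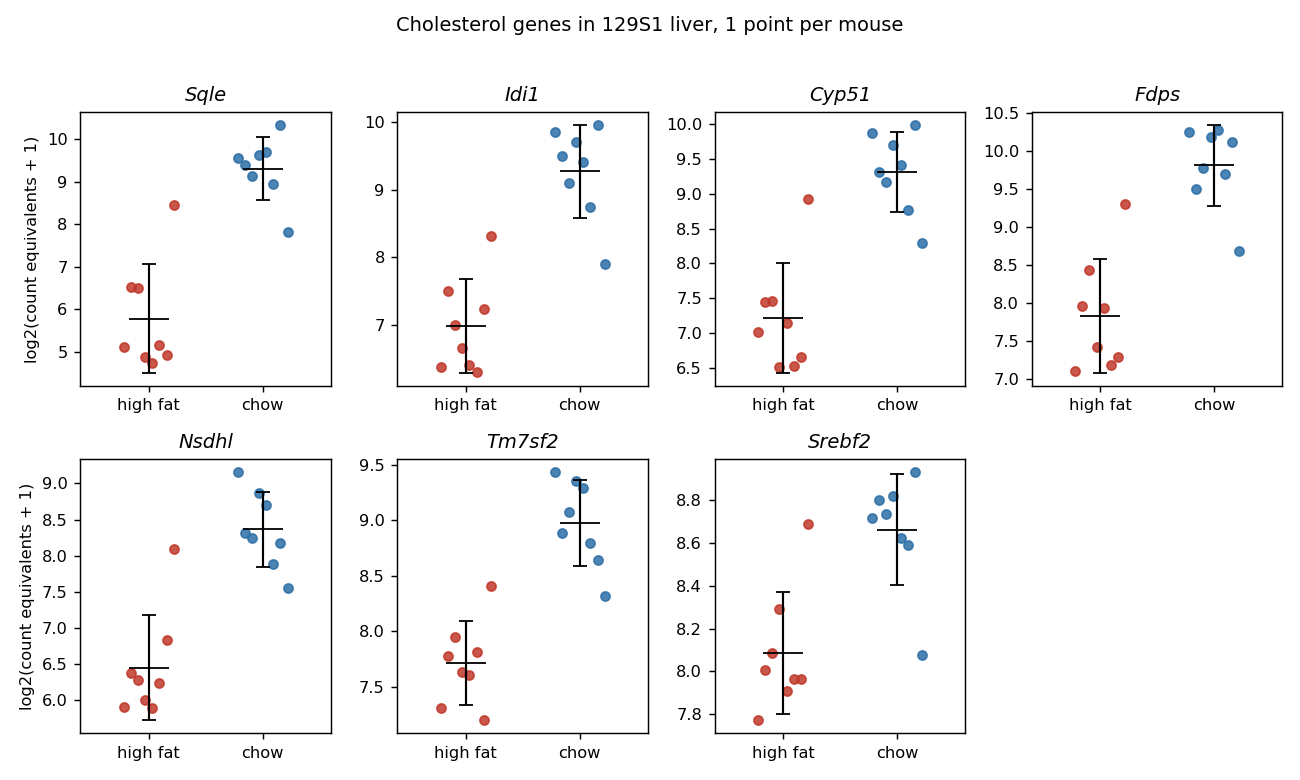
Level of 7 called cholesterol genes in each 129S1 mouse, as log2(count equivalents + 1), high fat left and chow right (points are mice, the long bar is the mean and the whiskers ±1 SD, n = 8 each). In each panel 1 high fat mouse lies above the other 7 and 1 chow mouse lies at the bottom of its group: for Sqle these are high fat mouse 8393 at 348 and chow mouse 8563 at 224 count equivalents.

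Srebf2, the gene of SREBP-2 itself, was chosen after its values were seen. It had 217, 253 and 411 count equivalents in high fat livers and 269, 423 and 488 in chow livers, a fall of 0.58 on the log2 scale (SE 0.15, adjusted p = 0.0191 by limma). Its call was lost without high fat mouse 7441 (adjusted p = 0.0501), high fat mouse 7654 (0.0526) or chow mouse 8144 (0.0717). The other 7 calls of the list held by limma without each of the 16 mice. In 129S1 alone with lane as a block, Cyp51 (adjusted p = 0.0508) and Fdps (0.0574) no longer passed, and Idi1 did not pass against a null fold of 1.2 (0.0631).

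High fat mouse 8393 had the highest value of the high fat mice for 8 of the 8 called genes, and chow mouse 8563 the lowest of the chow mice for 8 of 8. Without both mice, an alternative added after the data were seen, 12 of the 24 genes were called lower, and the log2 change of Sqle was -4.12. With 8393 alone left out, 12 were called. In these bulk samples, fewer cells of a type and less RNA per cell cannot be told apart.

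Other genes of the list did not pass. Insig1, whose product holds SREBP in the endoplasmic reticulum, was chosen after its values were seen and had a log2 difference of -0.82 (adjusted p = 0.252 by limma). The groups overlapped for all 24 genes of the list.

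Genes that make fatty acids and triglyceride did not move together. Of 24 listed, 1 was lower in high fat livers, Fads1, against 0.207% of all genes tested, and 0 were higher, against 1.23%. The signs were split 12 up and 12 down with a median log2 change of -0.06. For 3 of the 24 every high fat mouse was below every chow mouse, against 0.0739% of all genes tested. Fads1, a desaturase that makes long polyunsaturated fatty acids, had 1295, 1571 and 2016 count equivalents in high fat livers, against 2210, 3085 and 3825 in chow livers. The groups did not overlap, and the log2 change was -0.90 (SE 0.19, adjusted p = 0.00244 by limma).

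Fatty acid synthase itself came close to the threshold. Fasn had 657, 988 and 1506 count equivalents in high fat livers and 1526, 2044 and 2540 in chow livers, so that every high fat mouse was below every chow mouse, with a log2 change of -1.07 and an adjusted p of 0.052 by limma. Acaca, the cytosolic acetyl-CoA carboxylase, also had groups that did not overlap, at most 644 in high fat livers and at least 684 in chow livers (-0.73, adjusted p = 0.126). Acacb, the mitochondrial form, was at -0.97 (adjusted p = 0.0706). Scd1, the desaturase that makes monounsaturated fat, stood on the other side, with 5656, 18382 and 31573 in high fat livers and 3554, 10207 and 13584 in chow livers, a log2 difference of 0.87 that did not pass (adjusted p = 0.452). Pnpla3, a lipase gene known from human fatty liver, was at most 2.87 in high fat livers and 4.16 in chow livers and did not pass (log2 difference -0.15, adjusted p = 0.966), a sign that turned in 3 alternatives.

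Genes of fat uptake and of the lipid droplet held the 2 smallest adjusted p-values of all genes tested, those of Fitm1 and Mogat1. Of 21 listed, 4 rose (Fitm1, Mogat1, Cd36 and Fabp4), against 1.23% of all genes tested, and none fell. The list's median log2 change was 0.05, against 0.0086 over all genes tested. Fitm1 encodes an endoplasmic reticulum protein that helps partition triglyceride into droplets. It had 25.3, 44.0 and 59.99 count equivalents in high fat livers, against 0.953, 7.01 and 8.84 in chow livers, a log2 change of 2.65 ± 0.30 (SE, n = 8 each) and an adjusted p of 1.03e-10 by limma. Every high fat mouse was above every chow mouse. No chow liver reached 10 count equivalents of Fitm1 or Mogat1, the level used in deciding which genes to test. Depth limits values that low, so both ranks and both sizes rest on poorly measured chow levels.

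Mogat1, a monoacylglycerol acyltransferase that feeds triglyceride synthesis, was nearly silent on chow. High fat livers had 16.8, 2.53, 6.05, 6.91, 14.4, 29.6, 14.6 and 11.7 count equivalents, against 0 in 6 chow livers and 1.08 and 0.953 in the other two. The log2 change of value plus 1 was 3.28 ± 0.39 (SE), with an adjusted p of 8.57e-10 by limma. At values this low the fitted size depends on the pseudocount, and it was 1.63 with a pseudocount of 5.

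Cd36, the fatty acid transporter of the cell surface, had 308, 651 and 929 count equivalents in high fat livers, against 209, 233 and 289 in chow livers. The groups did not overlap, and the log2 change was 1.36 (SE 0.29, adjusted p = 0.00211 by limma). The lowest high fat mouse, 7456, stood apart from the other 7 at 308. Fabp4, a fatty acid carrier best known from fat cells and macrophages, had 21.1, 41.0 and 257 in high fat livers and 13.9, 23.3 and 52.4 in chow livers (1.19, adjusted p = 0.0342). Its groups overlapped, its 2 highest values were those of high fat mice 8378 and 8393, and its call was lost without any 1 of 7 mice, with adjusted p up to 0.23 without 8378.

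Pparg, the nuclear receptor that drives fat storage, had 19.5, 24.1 and 37.2 count equivalents in high fat livers, against 3.68, 11.9 and 16.3 in chow livers. No high fat mouse overlapped a chow mouse, and the log2 change was 1.33 (SE 0.34, adjusted p = 0.021 by limma), a call lost without chow mouse 7546 (adjusted p = 0.0654) or high fat mouse 7654 (0.0655). Pparg and Fabp4 were the 2 called genes of 6 tested adipose tissue markers, against 1.23% of all genes tested called higher. Of the fat cell's defining markers, Lep, Retn and Plin1 were at 0 in all 16 livers and Adipoq reached at most 0.845 in high fat livers and 0 in chow livers. The adipose list summed to 3638 to 14136 count equivalents in high fat livers and 5247 to 9222 in chow livers, most of it Car3, which liver also makes.

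Cidec and Plin2, classical coats of the lipid droplet, did not follow Fitm1. Cidec had 18.02, 35.7 and 52.7 count equivalents in high fat livers and 12.5, 22.2 and 363 in chow livers (log2 difference -0.10, adjusted p = 0.983 by limma), where the highest value was that of chow mouse 8144, and the difference was 0.37 without it. Plin2, chosen after its values were seen, had medians of 3510 in high fat livers and 3610 in chow livers (-0.46, adjusted p = 0.626). The chow maximum of Plin2 was 8498, and its high fat maximum was 4521.

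**Figure D2:**
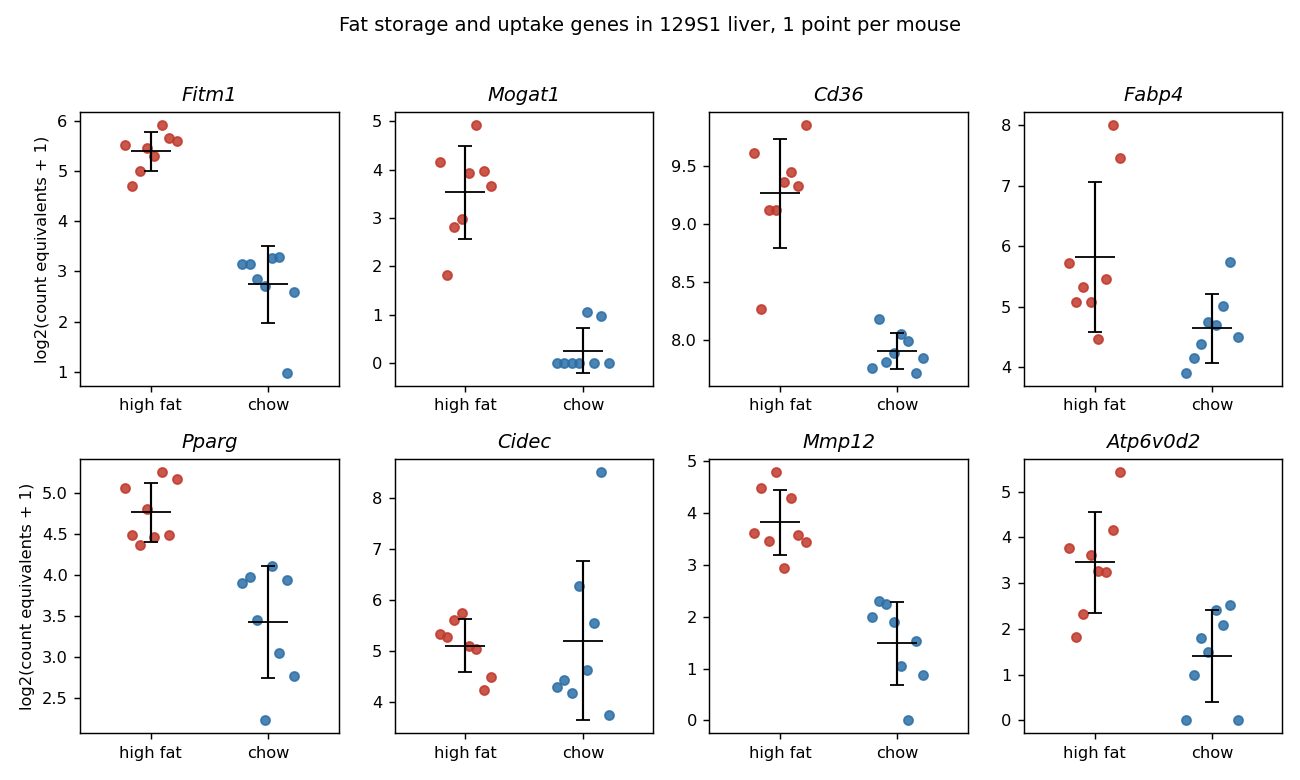
Level of 6 genes of fat storage and uptake and of 2 macrophage-associated genes in each 129S1 mouse, as log2(count equivalents + 1), high fat left and chow right (points are mice, the long bar is the mean and the whiskers ±1 SD, n = 8 each). Fitm1, Mogat1, Cd36, Pparg and Mmp12 separate the diets without overlap, whereas Cidec overlaps and 1 chow mouse reaches 363 count equivalents.

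Fatty acid oxidation and ketone body genes differed by small amounts. Of 30 listed, 3 rose (against 1.23% of all genes tested) and none fell. High fat livers had the higher mean for 26 of the 30, and for 6992 of all 13534 genes tested, and the list's median log2 change was 0.22. Hadh, which acts in the mitochondrial beta-oxidation cycle, had 1421, 1895 and 2290 count equivalents in high fat livers and 777, 1319 and 1543 in chow livers (0.57, SE 0.13, adjusted p = 0.00626 by limma). Acadm, the medium-chain acyl-CoA dehydrogenase, had 2658, 3235 and 3940 in high fat livers, against 1753, 2276 and 2635 in chow livers, without overlap (0.50, adjusted p = 0.0162). Chow mouse 8144 was the lowest chow mouse for both genes, and without it neither passed, with adjusted p of 0.0649 for Hadh and 0.0756 for Acadm. Acadm was also lost without high fat mouse 7654 (0.0655).

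Larger but more scattered differences in the same list did not pass. Cyp4a14, an omega-hydroxylase induced by PPAR-alpha, had 166.01, 891 and 1636 count equivalents in high fat livers and 43.4, 171.5 and 747 in chow livers, a log2 difference of 1.96 with an adjusted p of 0.391 by limma. Fgf21, a hormone of the fasted liver, had medians of 21.3 in high fat livers and 27.6 in chow livers (-0.39, adjusted p = 0.897). Of 22 genes of oxidative phosphorylation none passed (against 1.44% of all genes tested), and their log2 changes lay between -0.04 and 0.23. Nnt, the mitochondrial transhydrogenase, had medians of 831 in high fat livers and 705 in chow livers (0.23, adjusted p = 0.46).

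Among 19 genes of bile acid synthesis and transport, 2 rose (1.23% of all genes tested did) and none fell. Abcc3, which exports bile acids and conjugates into the blood, had 1004, 1249 and 1991 count equivalents in high fat livers, against 276, 572 and 853 in chow livers, without overlap (log2 change 1.21, SE 0.27, adjusted p = 0.00505 by limma). Acox2, a peroxisomal oxidase that shortens the side chain of bile acid precursors, had 2239, 2574 and 3265 in high fat livers, against 1094, 1873 and 2082 in chow livers, again without overlap (0.58, adjusted p = 0.00235). Both calls held without each of the 16 mice, and both were lost against a null fold of 1.2 and in 129S1 alone with lane as a block (adjusted p of 0.1244 for Abcc3 and 0.1261 for Acox2 there).

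Cyp7a1, the rate-limiting enzyme of bile acid synthesis, varied more between mice than between diets. It had 376, 298, 20.8, 1318, 2513, 1524, 1720 and 1486 count equivalents in high fat mice 7441, 7456, 7501, 7516, 7639, 7654, 8378 and 8393, against a lowest, median and highest of 28.6, 247 and 485 in chow mice. Of the high fat mice, 5 lay above every chow mouse and 1, mouse 7501, lay below every chow mouse. The log2 difference was 1.68 ± 0.87 (SE, adjusted p = 0.445 by limma), and it was 2.38 without mouse 7501, still short of the threshold. Akr1d1, which reduces the bile acid ring, had medians of 850 in high fat livers and 583 in chow livers (0.82, adjusted p = 0.056).

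**Figure D3:**
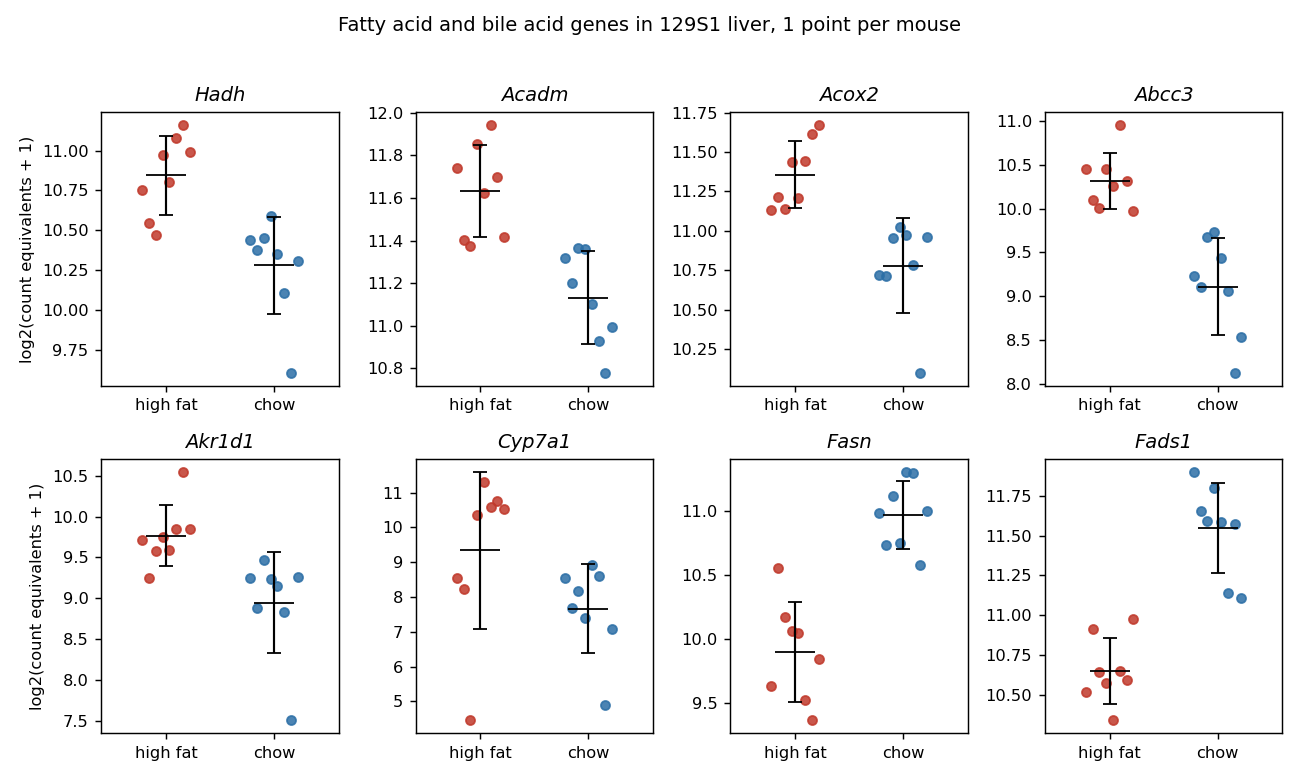
Level of 2 oxidation genes, 4 bile acid genes and 2 fatty acid synthesis genes in each 129S1 mouse, as log2(count equivalents + 1), high fat left and chow right (points are mice, the long bar is the mean and the whiskers ±1 SD, n = 8 each). Acadm, Acox2 and Abcc3 separate upwards and Fasn and Fads1 downwards, while Cyp7a1 spans 20.8 to 2513 count equivalents within the high fat group.

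Genes of foreign compound metabolism gave no call. None of 23 listed passed (against 1.44% of all genes tested), 18 had the higher mean in high fat livers, and the list's median log2 change was 0.35. Cyp3a11, a broad drug-metabolising P450, had 189, 1069 and 2302 count equivalents in high fat livers and 125.8, 520 and 1127 in chow livers (1.195, adjusted p = 0.278 by limma). Cyp2b10, the usual readout of the receptor CAR, had medians of 28.7 in high fat livers and 11.1 in chow livers (1.74, adjusted p = 0.258). Cyp3a25 was at 0.54 (adjusted p = 0.173). Of 17 tested antioxidant genes 1 rose, against 1.23% of all genes tested, and it was Nqo1, a quinone reductase. It had 13.4 to 25.3 in high fat livers and 6.18 to 16.8 in chow livers (0.98, adjusted p = 0.0432 by limma). That call was lost without any 1 of 12 mice, with adjusted p up to 0.113. Gsta1 was at 1.86 but low and did not pass (adjusted p = 0.161), and the groups of Gstp1 did not overlap at a log2 difference of -0.74 that did not pass either (adjusted p = 0.167). Reads of glutathione transferases, P450s and other families of close copies may have been split between genes.

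Several of the largest rises lay outside the listed pathways. Adgrv1, an adhesion receptor of very large size, had 105.03, 136.4 and 203 count equivalents in high fat livers, against 14.3, 32.0 and 46.6 in chow livers, without overlap (log2 change 2.19, SE 0.48, adjusted p = 0.00355 by limma). Adam11, a catalytically inactive member of the ADAM family, had 196, 272 and 575 in high fat livers and 74.5, 107.8 and 146.3 in chow livers, without overlap (1.44, adjusted p = 0.0023). Serpine2, an inhibitor of thrombin and other serine proteases, had 19.6, 28.2 and 63.9 in high fat livers and 3.25, 9.35 and 22.1 in chow livers (1.59, adjusted p = 0.000692). These 3 calls held by limma without each of the 16 mice. In 129S1 alone with lane as a block, Serpine2 (adjusted p = 0.1248) and Adam11 (0.0574) were lost, and Serpine2 was also lost with limma-voom (0.1118).

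Aldh3a2, which oxidises fatty aldehydes, had 898, 1573 and 2508 count equivalents in high fat livers and 299, 683 and 1006 in chow livers (log2 change 1.25, adjusted p = 0.00735 by limma, 0.0545 without chow mouse 8144). The carboxylesterases Ces1g, which hydrolyses lipid esters, and Ces2c rose by 1.47 (adjusted p = 0.0188) and 1.31 (0.0432) on the log2 scale. Ces1g had 70.02, 257 and 331 in high fat livers and 38.1, 82.2 and 111.2 in chow livers, and lost its call without high fat mouse 7654 (0.0586) or chow mouse 8144 (0.0821). Ces2c had 272 to 605 in high fat livers and 66.7 to 231 in chow livers without overlap, yet lost its call without any 1 of 10 mice (adjusted p 0.0528 to 0.17). Upp2, a uridine phosphorylase, had medians of 1899 in high fat livers and 644 in chow livers (1.29, adjusted p = 0.0393), and lost its call without any 1 of 11 mice (0.0524 to 0.155).

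Treh, which splits the sugar trehalose, had 54.3, 110.8 and 220 count equivalents in high fat livers and 17.6, 49.6 and 67.1 in chow livers (log2 change 1.39, adjusted p = 0.0196 by limma). Pls1, an actin-bundling plastin, had 11.4, 26.2 and 96.1 in high fat livers and 1.98, 8.27 and 12.5 in chow livers (1.90, adjusted p = 0.0197). Slc17a8, a vesicular glutamate transporter, had medians of 251 in high fat livers and 80.1 in chow livers (1.54, adjusted p = 0.0354). None of these calls held without each of the 16 mice. Treh and Pls1 were lost without any 1 of 4 mice (adjusted p up to 0.0714 and 0.0746) and Slc17a8 without any 1 of 9 (up to 0.14). The matrix genes Omd, which encodes a small leucine-rich proteoglycan, and Col5a3, a fibrillar collagen chain, rose by 1.30 (adjusted p = 0.0194) and 1.32 (0.0264), and lost their calls without any 1 of 2 mice (up to 0.0796) and of 4 mice (up to 0.17). Tmem28 completed the 15 largest rises at 1.34 (adjusted p = 0.0327), lost without any 1 of 9 mice (up to 0.0995).

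Outside cholesterol synthesis, the falls were few. Rdh11, a retinol dehydrogenase, had 51.8, 74.9 and 114.9 count equivalents in high fat livers, against 124.07, 216 and 299 in chow livers, without overlap (log2 change -1.39, SE 0.29, adjusted p = 0.00206 by limma). Gstm6, a glutathione transferase, had 63.2 to 203 in high fat livers and 223 to 326 in chow livers, also without overlap (-0.99, adjusted p = 0.00116). Plxnb1, a semaphorin receptor, had medians of 112.4 in high fat livers and 296 in chow livers (-1.23, adjusted p = 0.00453). These 3 calls held without each of the 16 mice. In 129S1 alone, Plxnb1 was lost without lanes (adjusted p = 0.0555) and with them (0.224), and Gstm6 with them (0.11995). Both were also lost against a null fold of 1.2.

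Cdh1, the epithelial cadherin, had 60.8, 64.7 and 87.9 count equivalents in high fat livers and 78.7, 140 and 354 in chow livers (log2 change -1.15, adjusted p = 0.019 by limma). It was lost without chow mouse 7471 (0.0717) or chow mouse 8144 (0.0574). Sel1l3 fell by 0.80 (adjusted p = 0.019), and was lost without chow mouse 8144 (0.0545) or high fat mouse 8378 (0.097). Sgsm1, whose product acts on small GTPases, and Unc13b, which primes vesicles for release, fell by 1.55 (0.0331) and 1.11 (0.03), and each was lost without any 1 of 8 mice (up to 0.117 and 0.133). Both were below 60 in every mouse.

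The lists of sugar and amino acid metabolism gave few calls. None of 20 genes of glucose and fructose metabolism passed, which is near the 1.44% of all genes tested. Pck1, the first enzyme of gluconeogenesis, had medians of 15729 count equivalents in high fat livers and 14840 in chow livers (log2 difference -0.24, adjusted p = 0.825 by limma), and Ppp1r3c, which directs glycogen synthesis, was at 1.06 (adjusted p = 0.378). Of 30 genes of amino acid breakdown and the urea cycle 1 rose, near the 1.23% of all genes tested, and it was Bhmt, which remakes methionine with betaine. Bhmt had 15763, 23264 and 40963 in high fat livers, against 6014, 11988 and 17554 in chow livers (1.08, SE 0.26, adjusted p = 0.0114), and its call held without each of the 16 mice but not against a null fold of 1.2 (0.284) or in 129S1 alone with lane as a block (0.10025). Lipoprotein genes gave 0 calls of 18, also near the 1.44% of all genes tested, with Apoc2 nearest at 0.50 (adjusted p = 0.056 by limma).

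Genes known to differ between male and female mouse liver showed 1 call. None of 20 male-biased genes passed, against 1.44% of all genes tested. Of 22 tested female-biased genes 1 rose, against 1.23% of all genes tested. It was Atp6v0d2, which is also a macrophage gene and is described below. Cyp17a1, a steroid hydroxylase, had 37.2, 58.2 and 123.9 count equivalents in high fat livers and 101.2, 219 and 260 in chow livers, a log2 difference of -1.58 that did not pass (adjusted p = 0.0752 by limma).

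Markers of other cell types gave calls in 3 lists, those of adipose tissue above, lipid-associated macrophages, and stellate cells and matrix. Of 10 markers of lipid-associated macrophages, the macrophages that gather around fat-laden cells, 2 rose, Mmp12 and Atp6v0d2, against 1.23% of all genes tested. High fat livers had the higher mean for 8 of the 10, with a median log2 change of 0.57, against 0.0086 over all genes tested. Mmp12, an elastase secreted by macrophages, had 6.70, 11.1 and 26.9 count equivalents in high fat livers, against 0, 2.33 and 3.92 in chow livers, without overlap (log2 change of value plus 1 of 2.34, SE 0.48, adjusted p = 0.00166 by limma). Atp6v0d2, a subunit of the proton pump of lysosomes, had 12.6, 2.53, 4.03, 11.2, 8.62, 8.45, 16.9 and 42.2 in high fat livers, against 0 to 4.77 in chow livers (2.04, adjusted p = 0.00505). With a pseudocount of 5 the sizes were 1.39 and 1.17. No chow liver reached 10 count equivalents of Mmp12 or Atp6v0d2, so these calls too rest on poorly measured chow levels.

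The other 8 markers did not pass. Gpnmb had 1.13, 2.78 and 8.64 count equivalents in high fat livers and 0, 0.861 and 8.58 in chow livers (log2 difference 1.05, adjusted p = 0.542 by limma), and Trem2 was at most 2.69 in high fat livers and 0.919 in chow livers (0.91, adjusted p = 0.379). Of the 10, 2 had the lower mean in high fat livers, the lowest at a log2 difference of -0.94. The summed level of the 10 markers was 563 to 1326 in high fat livers (median 733) and 534 to 1842 in chow livers (median 882). None of 15 markers of macrophages in general passed (against 1.44% of all genes tested). Their sum was 2673 to 8635 in high fat livers (median 3855) and 2682 to 6244 in chow livers (median 4146). How far macrophage number moves with Mmp12 was not tested.

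Of 18 genes of stellate cells and matrix 1 rose, against 1.23% of all genes tested, Colec11, a soluble lectin, with 75.8, 140.8 and 184 count equivalents in high fat livers and 69.6, 99.8 and 129 in chow livers (log2 change 0.50, adjusted p = 0.0341 by limma), lost without any 1 of 9 mice (adjusted p up to 0.143). Of the 18, 16 had the higher mean in high fat livers, with a median log2 change of 0.34, and the list summed to 2861 to 3552 in high fat livers, against 2482 to 2934 in chow livers. The fibrillar collagens Col3a1 (0.81, adjusted p = 0.199) and Col1a2 (0.70, adjusted p = 0.236) did not pass.

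No member of the lists for endothelial cells (13 tested), cholangiocytes (6), neutrophils (7), lymphocytes and natural killer cells (3), red blood cells (4) or pancreas (2) passed (against 1.44% of all genes tested). The same held for 17 genes of the unfolded protein response, where Creld2 was at -0.83 (adjusted p = 0.491 by limma), for 23 acute phase genes, where Saa3 was at -1.44 (0.668) and ranged from 141.1 to 10352 count equivalents in high fat livers and 231 to 13066 in chow livers, and for 20 interferon genes, 17 genes of the integrated stress response, 18 clock genes and 15 cell division genes, where Birc5 was at 1.26 (0.0917).

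**Figure D4:**
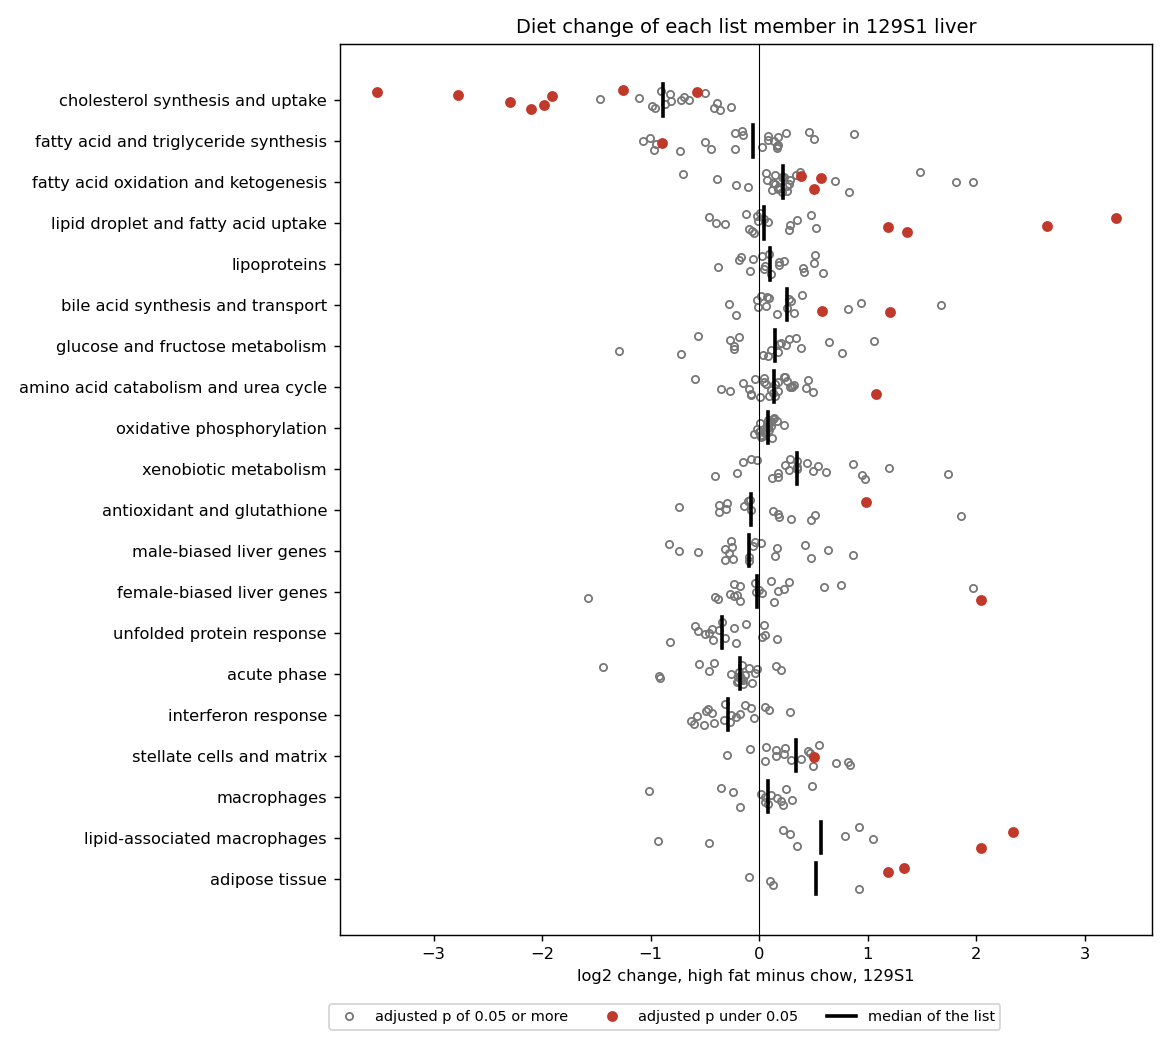
Log2 change, high fat minus chow, of each tested member of 20 gene lists in 129S1 liver. Red points passed an adjusted p of 0.05 by limma, open points did not, and the black bar is the list's median, which was -0.89 for the cholesterol list, 0.05 for the lipid droplet list and 0.22 for fatty acid oxidation.

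The 129S1 response was then set beside that of the other 7 strains, each fed both diets. By the same test, 195 genes changed with diet in 129S1 (1.44%), 18 in AJ (0.133%), 184 in NOD (1.36%), 366 in PWK (2.7%), 427 in B6 (3.16%), 718 in WSB (5.31%) and 2367 in NZO (17.5%), and CAST stood at 1.17%. Of the genes higher in 129S1, 81.4% were also called higher in the mean diet change of the other 7 strains, which called 11.5% of all genes tested as higher, and they made up 8.7% of that mean's higher calls. Of the 28 lower in 129S1, 24 (85.7%) were called lower in that mean, which called 9.31%, and they made up 1.9% of its lower calls. Single strains, with fewer mice than that mean, shared fewer. Of the genes higher in 129S1, NZO called 68.3% as higher against 10.1% of all genes tested, B6 42.5% against 1.99%, WSB 28.1% against 3.04%, NOD 15.6% against 0.842%, PWK 7.19% against 1.33%, CAST 2.99% against 0.51% and AJ 2.4% against 0.0665%. As a share of each strain's own higher calls, the shared genes were 44.4% in AJ, 26.4% in B6, 22.8% in NOD, 11.4% in WSB, 8.35% in NZO, 7.25% in CAST and 6.67% in PWK. Of the 28 genes lower in 129S1, NZO called 67.9% as lower against 7.4% of all genes tested, B6 14 of the 28 against 1.17%, NOD 46.4% against 0.517%, CAST 35.7% against 0.658%, WSB 35.7% against 2.27%, AJ 17.9% against 0.0665% and PWK 7.14% against 1.37%. As a share of each strain's own lower calls, these were 55.6% in AJ, 18.6% in NOD, 11.2% in CAST, 8.86% in B6, 3.26% in WSB, 1.9% in NZO and 1.08% in PWK. Opposite calls were seen for 2 genes in WSB, 1 in NZO and 1 in the mean, all higher in 129S1 and lower there. The genes called in 129S1 were chosen for their size there, so their median log2 change, 0.60 for the higher and -1.24 for the lower, cannot be compared with 0.25 and -0.90 in the mean of the others.

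The median log2 change of the cholesterol list was -0.89 in 129S1 and -0.91 in the mean of the other 7 strains. Sqle fell by 3.52 on the log2 scale in 129S1 and by 2.99 in the mean of the other 7, a difference of -0.53 with a 95% interval of -1.97 to 0.90 that did not pass (adjusted p = 0.979 by limma).

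The diet change of 129S1 differed from the mean of the other 7 strains for 2 genes (0.0148% of those tested) by limma at an adjusted p under 0.05, and 796 passed at an unadjusted p under 0.05 (5.88%). Atp6v0d2 changed by 2.04 in 129S1 and by -0.46 in the mean of the others, a difference of 2.50 with a 95% interval of 1.53 to 3.47 (adjusted p = 0.0184). Among the others it was highest in B6, at 0.88 (adjusted p = 0.348 within that strain), and lowest in WSB, at -1.40 (0.0515). Mogat1 changed by 3.28 in 129S1 and by 1.32 in the mean of the others, a difference of 1.96 with an interval of 1.13 to 2.79 (adjusted p = 0.0495). Mogat1 was also called higher within NZO (3.72) and B6 (2.80), while AJ (1.21), NOD (0.74), PWK (0.53), CAST (0.14) and WSB (0.11) did not pass within their strain.

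Both calls of a difference were lost when certain single mice were left out, and both genes had low values. Without high fat mouse 7441, high fat mouse 8378, high fat mouse 8393, chow mouse 7471, chow mouse 7486 or chow mouse 8563, 0 genes passed, and without chow mouse 7945, 4 did. Mogat1 also lost its call without high fat mouse 7639 or 7654, or chow mouse 7531, 7546 or 7960. Atp6v0d2 kept its call without each of these mice. With pseudocounts of 5 the difference was 1.40 for Atp6v0d2 and 0.81 for Mogat1.

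A further 6 genes, all with a mean of at least 20 count equivalents, had the smallest p-values of this difference without passing. Tusc3, a subunit of the complex that glycosylates proteins, had 58.1, 62.9 and 89.6 count equivalents in high fat livers, against 24.8, 38.5 and 46.6 in chow livers, without overlap (log2 change 0.92, adjusted p = 2.67e-05 by limma), while the other 7 strains averaged 0.22 (difference 0.70, adjusted p = 0.102). Hikeshi, a nuclear import carrier of heat shock proteins, fell by 0.48 in 129S1 (adjusted p = 0.019, lost without any 1 of 3 mice at up to 0.061) and averaged 0.05 in the others (difference -0.53, adjusted p = 0.147). Hsp90aa1, the inducible cytosolic chaperone, was at -0.61 in 129S1 and 0.22 in the others (difference -0.83, adjusted p = 0.135). Anp32e (difference -0.40, adjusted p = 0.135), Rsrp1 (0.47, adjusted p = 0.183) and Fitm1 (1.25, adjusted p = 0.19) did not pass either.

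Fitm1 was called higher within AJ, B6, NZO, PWK and WSB as well, at log2 changes between 1.35 and 2.13, and did not pass in NOD (0.77) or CAST (0.20). Cidec, which did not pass in 129S1, changed by 3.26 in B6 and 3.03 in NZO, but its difference between 129S1 and the mean of the other 7 (-1.09) did not pass (adjusted p = 0.906 by limma).

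**Figure D5:**
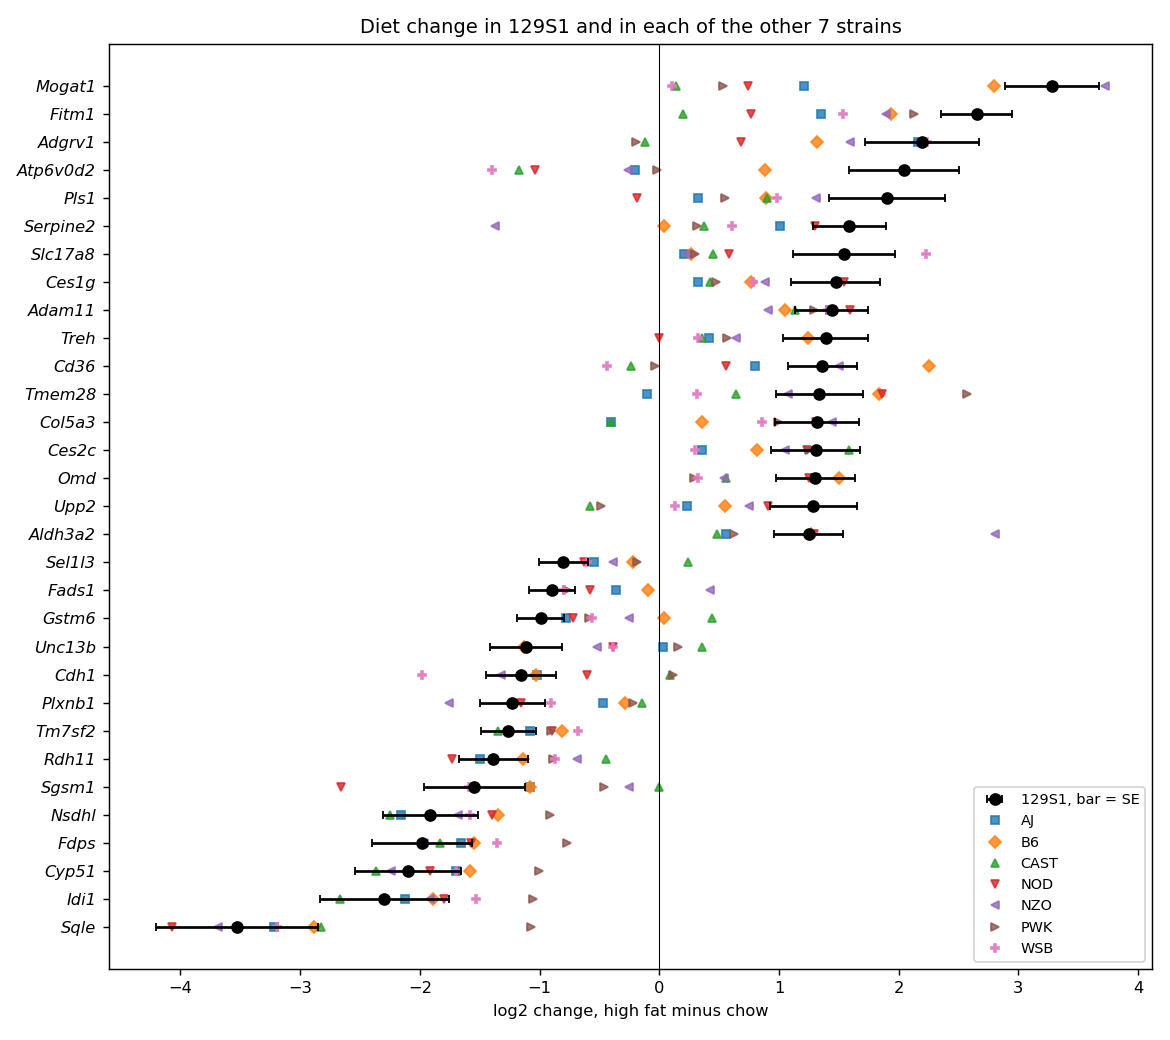
Log2 change, high fat minus chow, of the 15 largest rises and 14 of the 15 largest falls named for 129S1 and of Mogat1 and Atp6v0d2, in 129S1 (black, bar = SE) and in each other strain (coloured marks). Most marks lie on the side of 0 where 129S1 lies, for the cholesterol genes in all 7 other strains, whereas Atp6v0d2 rose by 2.04 in 129S1 and lay at or below 0.88 in the others.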

How the data were processed

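Livers were snap frozen, RNA was extracted with Trizol Plus and DNase, and TruSeq messenger RNA libraries were made, per the labels' protocols. The authors deposited 1 signal value per gene and library. Per the submitters' processing notes, CASAVA 1.8.0, RSEM 1.2.1 and Bowtie 0.12.8 were used with builds NCBIM37 and mm9. The founder values used here are labelled as aligned to the strain genomes. In each library the upper quartile over all listed genes is 1, so the deposited signal is scaled and is not a count. No source used here gives the strand setting of the counting, so overlapping antisense genes cannot be told apart.

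Here each value was multiplied by 114.908, the median over founder libraries of the step that 1 read is worth. Of values below 20.5, 82.6% on average lay within 0.1 of a whole number in the 129S1 libraries, so these are estimated counts and no count model was run. Genes with at least 10 count equivalents in at least 8 of 128 founder libraries were kept (13534 of 24965), and log2(value + 1) was fitted with limma 3.58.1 in R 4.3.3, with 16 strain and diet groups sharing 1 spread on 112 residual degrees of freedom and a trend of spread on level. Fold changes are on that scale and understate low genes. The contrasts were high fat minus chow in 129S1, and that minus the mean of the same contrast in the other 7 strains. Adjusted p-values are Benjamini-Hochberg over all genes. The test was also run on simulated independent counts, with the same dispersion for every gene and no shift shared by a mouse or a lane. That setting is simpler than these data, so it does not give the error rate here.

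Gene symbols come from the GENCODE M21 table, which matched 22760 of 24965 identifiers. It is built on another genome than the authors used, so the only positions given are those of the promoters shown, on GRCm38.p6. Promoters were read from RefSeq on GRCm38.p6, and 16 of the 24 tested cholesterol genes had one. Named genes are the 15 largest rises and 15 largest falls among calls with a mean of at least 20 count equivalents and a curated symbol, the 6 smallest p-values of the strain difference within the same bounds, 2 to 4 members of each gene list, and a fixed set. Others are said to be chosen after their values were seen. Some genes that these rules pick are not reported here, while the counts over lists include them. The strain and the gene lists were chosen with earlier results of these data known. Over all genes tested, the deviations of the 2 mice of a lane from their diet means correlated at -0.31 to 0.06. A correlation over all genes cannot show whether lane moved single genes. Nothing says that the mice came from separate litters or cages, so p-values measure the spread between these mice. The alternatives were pseudocount 5, no filter, a filter within 129S1, median-ratio scaling, limma-voom, a lane block, array weights, a null fold of 1.2, 129S1 alone with and without lanes, and leaving out each mouse.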

Additional observations from a re-analysis of the deposited data

Results flagged for a closer look

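The response to high fat differed between 129S1 and the mean of the other 7 strains for 2 genes, Atp6v0d2 by 2.50 and Mogat1 by 1.96 on the log2 scale, by limma at adjusted p of 0.0184 and 0.0495.

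Among 93 named genes, each examined in the 8 high fat and in the 8 chow mice, 21 of 186 groups held 1 mouse whose gap to the next was over Dixon's 95% critical value for 8 values, as a share of the group's range on the log2 scale. Chance flags about 1 in 20 such groups. All values below are count equivalents.

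High fat mouse 8393 was the highest high fat mouse for Cyp51 (485) and Nsdhl (271) and the lowest for Gstm6 (63.2) and Ces1g (70.02). High fat mouse 8378 was the highest for Akr1d1 (1497). High fat mouse 7501 was the lowest for Slc17a8 (79.3) and Cyp7a1 (20.8) and high fat mouse 7456 for Cd36 (308) and Nnt (653).

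Chow mouse 8144 was the lowest chow mouse for Fitm1 (0.953), Ces1g (38.1), Acox2 (1094), Cyp7a1 (28.6), Nnt (558), Akr1d1 (180.1), Chpt1 (593), Acat1 (1511) and Mccc1 (176). Chow mouse 8563 was the lowest for Srebf2 (269) and Insig1 (762). Chow mouse 7546 was the highest for Trem2 (0.919).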

How the results depend on the processing

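The direction of the diet change was the same under every alternative run for all named genes except Pnpla3 and Cidec, neither of which passed. The filter within 129S1 leaves out 11 of the 93 named genes, so they have no value there. Pnpla3 turned to 0.0463 with array weights, 0.0396 without high fat mouse 7441 and 0.0393 without high fat mouse 8393 and chow mouse 8563 together, and lay between -0.353 and 0.0396 with 1 mouse left out. Cidec turned to 0.316 with array weights, 0.0542 without chow mouse 7546, 0.374 without chow mouse 8144 and 0.0246 without high fat mouse 8378, and lay between -0.306 and 0.374 with 1 mouse left out. Of 61 named genes that passed, 34 passed without each of the 16 mice and 27 were lost without at least 1. Of the 61, 47 were lost in 129S1 alone with lanes, 40 against a null fold of 1.2, 12 with no filter, 12 without mice 8393 and 8563, 9 with limma-voom, 8 in 129S1 alone and 1 with pseudocount 5 (Nqo1), and 0 with lanes over all founders, array weights or median-ratio scaling.

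The 195 calls became 713 with array weights, 26 against a null fold of 1.2 and 22 in 129S1 alone with lanes as a block, and lay between 85 and 281 with 1 mouse left out. Genes higher in high fat livers, 1.23% of those tested, became 4.02% with array weights, 0.133% against the null fold and 0.0739% in 129S1 alone with lanes, and lay between 0.502% and 1.77% with 1 mouse left out. Genes lower, 0.207%, became 1.25%, 0.0591% and 0.0887% under these settings, were 0.429% in 129S1 alone without lanes, and lay between 0.126% and 0.31%. The 8 cholesterol calls became 19 with array weights, 13 in 129S1 alone and 5 there with lanes, and lay between 7 and 12. The 2 strain differences became 4 with pseudocount 5, 6 with no filter, 0 with a filter within 129S1, 1 with median-ratio scaling, 0 with limma-voom, 1 with lanes as a block, 24 with array weights, 0 against a null fold of 1.2, 0 without mice 8393 and 8563, and lay between 0 and 4 with 1 mouse left out. Fewer mice entered the fits of 129S1 alone, yet without lanes that fit gave 106.7% of the 195 calls. The filter within 129S1 leaves out both Atp6v0d2 and Mogat1, so neither could pass there. These counts do not always hold the same genes. Of the other 24 alternatives, the strain difference of Mogat1 was lost in 17, among them pseudocount 5, median-ratio scaling, limma-voom and lanes over all founders. That of Atp6v0d2 was lost in 9 of the 24, among them limma-voom and the null fold of 1.2. The cause of the moves was not tested.

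With median-ratio scaling 1.18% of genes tested were higher and 0.244% lower, and the median change of all genes was -0.002, against 0.0086. Mouse numbers are unique to each mouse. The fit of 129S1 alone with lanes as a block is the one paired analysis run, with 1 high fat and 1 chow mouse a lane. Depth limits genes below about 10 count equivalents, such as Mogat1 and Trem2 on chow.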

Other observations

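Genes named here were chosen after their values were seen. Some steep rises with high fat in 129S1 were in genes whose mean over the 16 livers was under the bound of 20 count equivalents for named genes, and 3 of them are given here. Sema5b, a semaphorin, had 2.02, 22.5 and 70.1 count equivalents in high fat livers (lowest, median and highest of 8), against 0, 0.955 and 1.67 in chow livers, without overlap (log2 change 3.44, adjusted p = 1.49e-06 by limma). Themis, best known for its role in developing T cells, had 2.53, 13.2 and 78.6 in high fat livers, against 0, 1.65 and 3.33 in chow livers (3.05, adjusted p = 4.17e-06), while the T cell marker Cd3e was at most 2.80 in high fat livers and 2.17 in chow livers. Aqp4, a water channel, had 3.79, 12.1 and 22.8 in high fat livers and 1.24, 1.93 and 3.68 in chow livers, without overlap (2.04, adjusted p = 0.000972). None of these 3 genes reached the filter's 10 count equivalents in any 129S1 chow mouse.

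Other called genes, which form no list, had larger means. Ugt3a1, a sugar transferase, had 216, 361 and 411 count equivalents in high fat livers, against 100.1, 179 and 216 in chow livers, without overlap (log2 change 0.98, adjusted p = 2.76e-05 by limma). Slc47a1, which exports organic cations, had 486, 760.0 and 980.1 in high fat livers and 204, 384 and 477 in chow livers, without overlap (1.03, adjusted p = 0.000115). Sult1b1, a sulfotransferase, had 267 to 367 in high fat livers and 99.9 to 243 in chow livers, without overlap (0.95, adjusted p = 0.00211), and the exporter Abcg2 had 601 to 968 in high fat livers and 326 to 555 in chow livers, without overlap (0.77, adjusted p = 0.000611). Aldh1a1, which makes retinoic acid, had medians of 10242 in high fat livers and 5394 in chow livers (0.98, adjusted p = 9.23e-05), and Fmo5, a flavin monooxygenase, 10401 and 5634 (0.92, adjusted p = 0.00116). Ephx1, an epoxide hydrolase, rose by 1.014 on the log2 scale (adjusted p = 0.0422), and that call was lost without any 1 of 10 mice (up to 0.145).

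Further called genes outside the lists changed by small amounts. Chpt1, which makes phosphatidylcholine, had 1382 to 2069 count equivalents in high fat livers and 593 to 1198 in chow livers, without overlap (log2 change 0.74, adjusted p = 0.000701 by limma). Acat1, which acts on ketone bodies and isoleucine, had 2665 to 3224 in high fat livers and 1511 to 2431 in chow livers, without overlap (0.50, adjusted p = 0.0173, 0.0896 without chow mouse 8144). Mccc1, of leucine breakdown, rose by 0.43 (adjusted p = 0.00211), Gcdh, of lysine breakdown, by 0.39 (0.0224, lost without any 1 of 5 mice), and Bbox1, of carnitine synthesis, by 0.64 (0.0347, lost without any 1 of 8 mice). Lsr, a receptor that takes up lipoproteins, fell by 0.57 (adjusted p = 0.00735), and Lbr, which also carries sterol reductase activity, fell by 0.47 (0.0367, lost without any 1 of 11 mice).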
